A study of Mus musculus with 6 samples.

Results

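TRBV20 is one of the variable (V) segments that supply the start of the T-cell receptor beta chain (TCRB), and its rearrangements were followed here in T follicular regulatory (Tfr) cells of the mouse spleen. Members were all rearrangements whose V segment was named TRBV20 in the 6 deposited tables. They came to 219 of 4409 listed rearrangements, which were 209 of 4238 distinct nucleotide sequences, and to 348 of 7043 templates, or 4.94%. Tfr cells were sorted from the spleens of 3 mice of the Foxp3GFP genotype, which all groups share. From each mouse came a pair of samples, whose titles call one superior and the other inferior. The labels explain neither word, and both serve here only as group names. No treatment, age or sorting gate is given in the sources used here, and DNA rearrangements carry no marker by which the cell type could be checked. The beta chain rearrangements in their genomic DNA were amplified with the immunoSEQ kit for mouse TCRB, in its survey form. The deposited count of each rearrangement is called templates, meaning copies of the rearranged DNA. The tables do not say whether the count was of templates or of reads, so a count is not a number of cells.

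A functional beta chain gene is assembled in the thymus by joining a D segment to a J segment and then a V segment to that DJ unit. Bases are trimmed and added at each join. The joined stretch encodes the third complementarity-determining region (CDR3), the loop that contacts the peptide held by the MHC molecule most directly, whereas the first and the second loops are encoded by the V segment itself. Trbv20 is annotated as a V segment gene on chromosome 6 at chr6:41188273-41188977 of the RefSeq annotation of GRCm38.p6, the assembly of mm10. The D and J segments lie downstream in the same locus, in 2 clusters. Trbj1-3 is at chr6:41534323-41534372, Trbj2-2 at chr6:41542957-41543007 and Trbj2-7 at chr6:41543810-41543856.

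TRBV20 left a start of its own on the CDR3. The CDR3 began with the residues CGA in 214 of the 218 TRBV20 rearrangements whose listed CDR3 starts with cysteine, and in 0 of 4150 rearrangements of the other V segments, of which 87.5% began with CAS. This start is a property of the segment, by which it is also recognised, and is given as a description. Among the 208 distinct TRBV20 rearrangements, 156 (75.0%) began with CGAR, 21 with CGAS and 6 with CGAG. Arginine thus stood at the fourth position in most of them. The bases behind this start were read from the data as the stretch, counted from the cysteine codon, over which the most common base made up at least 65% of the segment's rearrangements. They are called V-like bases, those matched in the same way from the J end are called J-like, and what lies between is the middle of the CDR3, in which D bases and added bases fall. The V-like stretch of TRBV20 and the J-like stretches of 3 J segments that recur below were as follows, 5′ to 3′.
TRBV20: tgtggtgctagg
TRBJ1-3: ctggaaatacgctctat
TRBJ2-2: acaccgggcagctctac
TRBJ2-7: tatgaacagtac

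The V-like stretch of TRBV20 had 12 bases. The 20 V segments with at least 40 rearrangements had 12 to 16 bases with a median of 13, and 3 others also had 12. All 12 bases were kept in 126 of 207 TRBV20 rearrangements (60.9%). At least 11 were kept in 79.2% and at least 8 in 98.6%, so that in nearly all of them the match ended within the last 4 bases or reached the end.

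TRBV20 held 4.86% ± 0.706 (SD, n = 6) of the templates of a sample and ranked 7th of 29 V segments. Its neighbours in the order were TRBV16 at 5.24% and TRBV13-3 at 4.83%, and both lay within that SD. The superior samples of mice 1, 2 and 3 gave 5.40%, 4.02% and 4.58%, from 36, 44 and 52 TRBV20 templates. The inferior samples gave 5.55%, 4.13% and 5.50%, from 76, 38 and 102 templates. The lowest share lay in a superior and the highest in an inferior sample, and the groups overlapped. The 95% Wilson intervals, which cover counting error only, ran from 3.01 to 5.35% in the lowest sample and from 4.45 to 6.89% in the highest, and so overlapped as well.

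**Figure D1:**
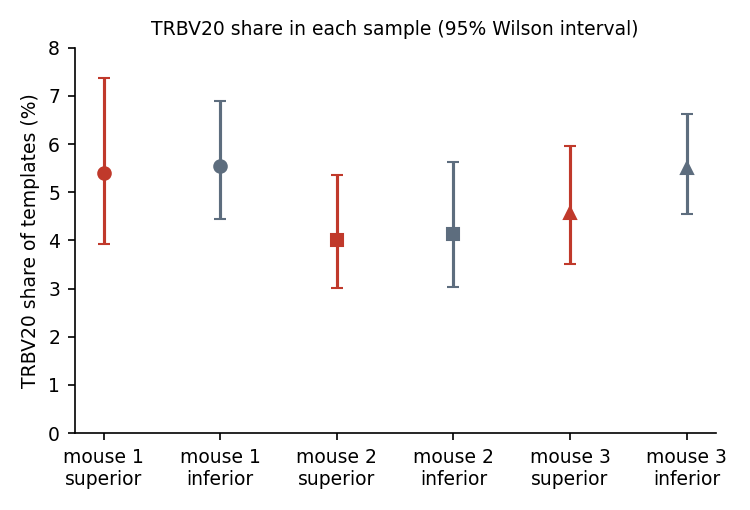
Share of templates (%, vertical axis) that carried TRBV20 in the superior (red) and inferior (grey) sample of each of the 3 mice, with bars for the 95% Wilson interval. Every interval overlaps every other, and the superior sample lies slightly below the inferior one of the same mouse, from 4.02% against 4.13% in mouse 2 to 4.58% against 5.50% in mouse 3.

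The superior samples averaged a TRBV20 share of 4.66% ± 0.694 and the inferior ones 5.06% ± 0.804 (n = 3 each). In 3 of 3 mice the superior sample was the lower one. The difference did not exceed the spread between samples (two-sided exact permutation test without pairing by mouse, p = 0.5, the smallest p for 3 against 3 being 0.1). With each rearrangement counted once the shares were 4.63% and 5.18% (exact permutation p = 0.4). In edgeR's quasi-likelihood fit over all V segments the log2 ratio of superior to inferior was -0.15 (95% interval -0.61 to 0.30, adjusted p = 0.898). This fit called 0 of 23 V segments, a background of 0%, with 2 at an unadjusted p under 0.05, and DESeq2 also called 0, with 0 unadjusted. Among the 17 V segments with at least 100 templates, the TRBV20 share across the 6 samples was most like those of TRBV26 (r = 0.70), TRBV15 (r = 0.56) and TRBV4 (r = 0.55). These values describe 6 samples of 3 mice, and shares of one library sum to a fixed total.

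TRBV20 was joined to TRBJ1-3 more often than the other V segments were. TRBJ1-3 took up 16.1%, 18.3% and 12.5% of the TRBV20 templates of mice 1, 2 and 3, against 6.70%, 6.32% and 7.34% of the templates of all other V segments. The ranges do not overlap. The mean was 15.6% ± 2.92 for TRBV20 and 6.79% ± 0.514 for the others (n = 3 mice), a 2.24-fold ratio (log2 1.16, SE 0.37, edgeR adjusted p = 0.0489, mouse as a term). By sample, the superior ones of mice 1, 2 and 3 had 8.33%, 13.6% and 9.62%, and the inferior ones 19.7%, 23.7% and 14.0%. All 6 lay above the other V segments of the same sample, which were between 5.91% and 7.87%. The superior values rested on 3, 6 and 5 templates in 1, 3 and 3 rearrangements. The inferior ones rested on 15, 9 and 14 templates in 6, 4 and 4 rearrangements. In the superior sample of mouse 1 the share was thus the size of 1 rearrangement. TRBJ1-3 was the only J segment called of 12 tested (8.33%), while 3 had an unadjusted p under 0.05. Among the 17 V segments with at least 100 templates, TRBV20 had the second highest TRBJ1-3 share after TRBV29.

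The call on TRBJ1-3 was close to the threshold and rested on 52 templates in 21 rearrangements. The higher use kept its direction in every alternative run, but the call was lost in 9 of 11, among them the counting of each rearrangement once (log2 0.84, adjusted p = 0.189) and DESeq2 (log2 1.18, adjusted p = 0.110), which called 0 J segments, with 2 at an unadjusted p under 0.05. It was also lost without mouse 1 (adjusted p = 0.194), without mouse 2 (adjusted p = 0.229) and without mouse 3 (adjusted p = 0.423).

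Templates per rearrangement varied with the J segment, in TRBV20 as in the other V segments. TRBV20 rearrangements with TRBJ1-3 had 2.48 templates each, against 1.98 in the other V segments. Those with TRBJ2-7 had 2.32 and 2.31, and those with TRBJ1-5 had 2.17 and 2.06. At the other end, TRBJ1-1 gave 1 and 1.06, TRBJ1-6 gave 1 and 1.08, and TRBJ2-5 gave 1.12 and 1.14. The 2 sets of values followed the same order for the most part. The part of this in the J shares by templates was not tested beyond counting each rearrangement once, as given above.

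**Figure D2:**
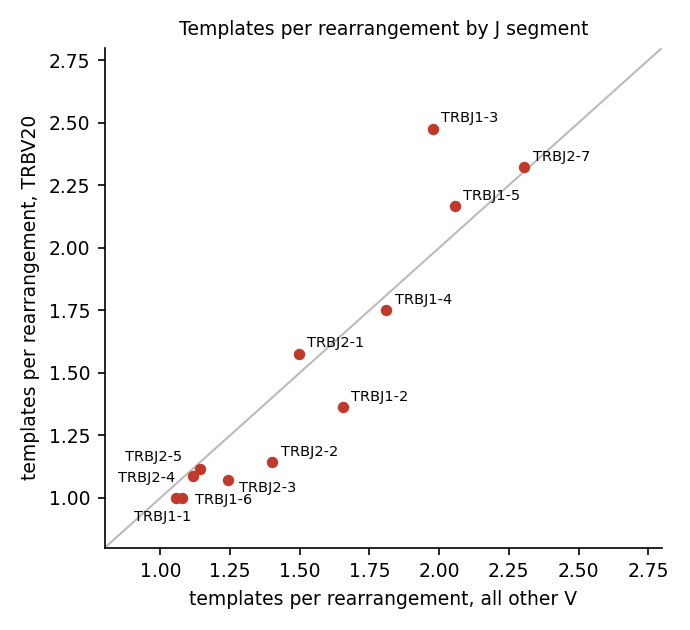
Templates per rearrangement for each J segment in TRBV20 (vertical axis) and in all other V segments (horizontal axis), pooled over the 6 samples, with the line of equality in grey. TRBJ2-7 lies near 2.3 on both axes and TRBJ1-1 and TRBJ1-6 near 1, while TRBJ1-3 lies farthest above the line at 2.48 against 1.98.

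TRBJ2-7 was the most frequent J segment of TRBV20 as of the others. It made up 27.7%, 20.7% and 20.4% of TRBV20 templates in mice 1, 2 and 3 and 32.7%, 37.5% and 28.5% of the rest. The means were 22.9% ± 4.11 and 32.9% ± 4.52 (n = 3), and the log2 ratio of -0.50 (SE 0.23) did not pass the test (edgeR adjusted p = 0.162). TRBV20 was lower in 3 of 3 mice and in 5 of 6 samples, the exception being the superior sample of mouse 1 at 36.1% against 33.4%. Within TRBV20, the TRBJ2-7 share was 28.1% ± 7.04 in superior and 19.5% ± 3.97 in inferior samples. It was higher in the superior sample of 3 of 3 mice, which was not past the threshold (exact permutation p = 0.2 without pairing by mouse, adjusted p = 0.4 over 4 features). Paired by mouse, the exact sign-flip permutation p was 0.25, the smallest for 3 mice. The other V segments went the same way in each mouse. Those of mice 1, 2 and 3 had 33.4%, 38.6% and 30.2% in the superior samples and 32.3%, 36.2% and 27.4% in the inferior ones.

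TRBJ2-2 was seen in 8 TRBV20 templates and 7 rearrangements. It made up 2.68%, 0% and 3.29% of TRBV20 templates in mice 1, 2 and 3, and 5.30%, 5.70% and 7.05% of the others. TRBV20 was lower in all 6 samples, but the log2 ratio of -1.44 (SE 0.60) did not pass the test (edgeR adjusted p = 0.141). TRBJ1-5 and TRBJ2-1 had higher means in TRBV20 that rested on some of the mice. TRBJ1-5 stood at 1.79%, 9.76% and 10.5% against 5.2%, 3.16% and 4.69% (adjusted p = 0.354). TRBJ2-1 stood at 20.5%, 8.54% and 7.24% against 9.72%, 8.34% and 8.57% (adjusted p = 0.785). Neither held one direction in the 3 mice. The remaining 7 J segments tested, TRBJ1-1, TRBJ1-2, TRBJ1-4, TRBJ1-6, TRBJ2-3, TRBJ2-4 and TRBJ2-5, had log2 ratios between -0.36 and 0.17, and none passed the test (adjusted p from 0.872 to 0.930).

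**Figure D3:**
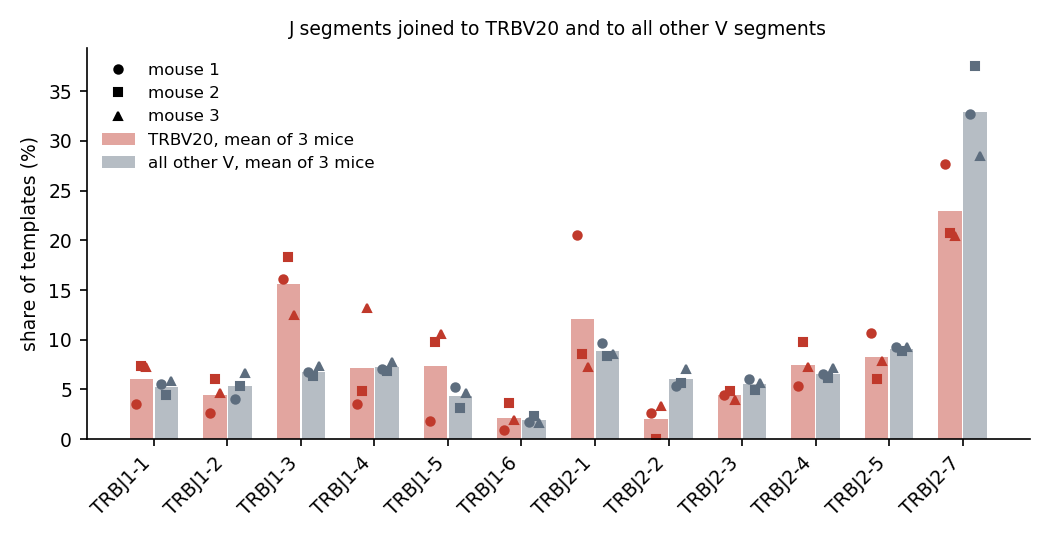
Share of templates (%, vertical axis) joined to each J segment, for TRBV20 (red) and all other V segments (grey). Bars are means of 3 mice and symbols are single mice. For TRBJ1-3 the 3 TRBV20 values, 12.5 to 18.3%, lie above the values of the other V segments, 6.32 to 7.34%, and for TRBJ2-7 they lie below.

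Summed over the clusters, J segments of the TRBJ1 cluster made up 28.6%, 50.0% and 50.0% of the TRBV20 templates of mice 1, 2 and 3, and 30.3%, 28.6% and 33.9% of the others. The mean difference was 11.9 percentage points (SD 12.1, n = 3) and TRBV20 was higher in 2 of 3 mice, which is no consistent direction (exact sign-flip permutation p = 0.5, the smallest for 3 mice being 0.25). Among the same 17 V segments, those with the most similar J use, by the Jensen-Shannon distance, were TRBV1 (0.172), TRBV19 (0.182) and TRBV31 (0.186).

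The D segment named also varied with the J cluster. The D segment TRBD1 lies upstream of the first J cluster and can join either cluster, and TRBD2 lies between the clusters. TRBD1 was named in 52.7%, 63.4% and 46.8% of TRBV20 templates of mice 1, 2 and 3, against 43.3%, 43.1% and 49.0% of the others (exact sign-flip permutation p = 0.5). TRBD2 was named in 33.9%, 21.95% and 28.6%, against 37.4%, 38.4% and 31.8%. TRBD2 was thus lower for TRBV20 in 3 of 3 mice by templates, with a mean difference of -7.69 percentage points (SD 7.57, n = 3, exact sign-flip permutation p = 0.25, the smallest possible). The superior sample of mouse 3 went the other way, at 40.4% against 32.1%. The difference was -3.32 points without mouse 2 and -4.84 points with each rearrangement counted once (exact sign-flip permutation p = 0.5). No D segment was resolved in 17.6% ± 6.19 and 19.0% ± 0.435. Within each J cluster the differences in TRBD1 and TRBD2 were smaller, and that in unresolved templates was not. Among templates of the TRBJ1 cluster, TRBD1 stood at 75.3% ± 14.1 in TRBV20 and 68.5% ± 4.47 in the others, and TRBD2 at 4.0% ± 4.84 and 6.0% ± 2.15. Among templates of the TRBJ2 cluster, TRBD1 stood at 39.4% ± 3.37 and 34.6% ± 1.54, and TRBD2 at 46.8% ± 5.08 and 49.2% ± 2.7. Unresolved templates stood at 20.7% and 25.5% in the TRBJ1 cluster and at 13.8% and 16.2% in the TRBJ2 cluster.

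The CDR3 of TRBV20 was shorter than that of the other V segments in every mouse and sample. Its mean length was 13.2, 12.7 and 13.1 residues in mice 1, 2 and 3, against 13.7, 13.8 and 13.8 residues in the others. The difference was -0.757 residues (SD 0.327, n = 3 mice, exact sign-flip permutation p = 0.25, the smallest possible). By sample, TRBV20 had 12.8, 12.5 and 13.1 residues in the superior and 13.4, 12.9 and 13.1 in the inferior samples of mice 1, 2 and 3. The other V segments ranged from 13.7 to 13.9, so the values did not overlap. Taken over the 6 samples as units, which treats both samples of a mouse as independent, the difference was -0.796 residues (exact sign-flip permutation p = 0.0313). TRBV20 had the lowest mean of the 17 V segments with at least 100 templates, 12.99 ± 0.281 residues. The next was TRBV15 at 13.27 ± 0.152, which lies within 1 SD of TRBV20, and then TRBV31 at 13.34 ± 0.234. When the other V segments were weighted to the J use of TRBV20 in each mouse, the difference was -0.808 residues.

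**Figure D4:**
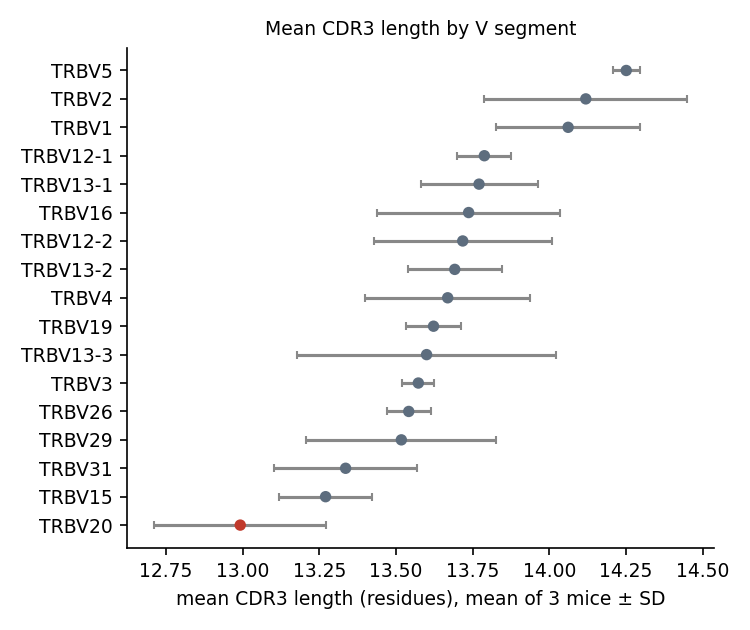
Mean CDR3 length (residues, horizontal axis) of the 17 V segments with at least 100 templates, as the mean of 3 mice with bars of 1 SD. TRBV20 (red) is lowest at 12.99, and its bar overlaps those of TRBV15, TRBV31, TRBV29 and TRBV13-3.

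The shift came from both sides of the length distribution. CDR3s of 12 residues made up 16.2%, 35.4% and 18.8% of TRBV20 templates in mice 1, 2 and 3 against 8.53%, 11.5% and 12.03% of the others, with mouse 2 far above mice 1 and 3. The means were 23.5% ± 10.4 and 10.7% ± 1.89, a 2.09-fold ratio (log2 1.06, SE 0.39, edgeR adjusted p = 0.0418). CDR3s of 15 residues made up 11.7%, 8.54% and 3.25% against 19.5%, 22.7% and 21.99%. The means were 7.83% ± 4.28 and 21.4% ± 1.70, and the log2 ratio was -1.54 (SE 0.46, adjusted p = 0.0161). CDR3s of 16 residues were found in 2 TRBV20 templates of mouse 1 and in none of mice 2 and 3, against 6.33%, 6.16% and 6.60% of the others (adjusted p = 0.00484). Over all mice that was 2 of 347 against 425 of 6648 templates, a ratio of 0.0902 with a 95% counting interval of 0.0109 to 0.328.

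These 3 lengths were the ones called of 10 tested (30.0%), and the same number had an unadjusted p under 0.05. TRBV20 held the 13 and 14 residue classes, the most common ones, at 26.2% and 30.0% against 24.8% and 29.0%, with adjusted p of 0.912 and 0.921 in edgeR. Together, CDR3s of 12 or fewer residues made up 34.9% ± 11.1 of TRBV20 templates and 16.6% ± 1.43 of the others, and were more frequent in TRBV20 in 6 of 6 samples. Pooled over the samples their share was 32.9% in TRBV20 and 31.7% in TRBV31, the next of the 17 V segments with at least 100 templates. No length was called without mouse 2, without mouse 3 or with DESeq2, which had 2 lengths at an unadjusted p under 0.05, although all 3 ratios kept their direction in each of these. The class of 12 residues was also not called with TMM (adjusted p = 0.384) or without mouse 1 (adjusted p = 0.0794).

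**Figure D5:**
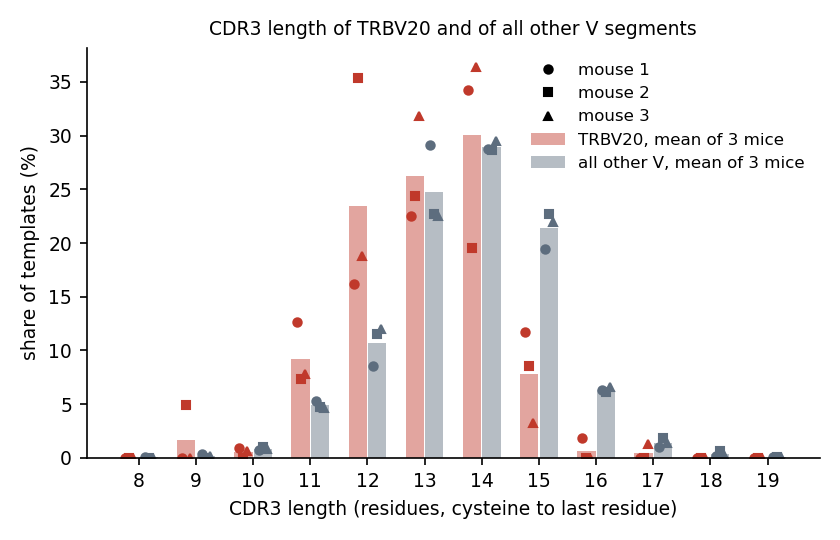
Share of templates (%, vertical axis) by CDR3 length in residues for TRBV20 (red) and all other V segments (grey). Bars are means of 3 mice and symbols are single mice. TRBV20 lies higher at 12 residues, 23.5% against 10.7%, and lower at 15 residues, 7.83% against 21.4%.

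Divided into its parts, the TRBV20 CDR3 had fewer V-like bases than that of the other V segments. They numbered 11.3, 10.6 and 11.0 per template in mice 1, 2 and 3 against 12.9, 13.2 and 13.1, a mean difference of -2.07 bases (SD 0.439, n = 3), and all 6 samples were lower. The V-like stretch of TRBV20 cannot exceed 12 bases, and the others averaged above 12 in every sample. The direction of this difference was therefore fixed by the definition. The middle held 11.6, 10.3 and 11.3 bases against 11.7, 11.8 and 11.5, a difference of -0.614 bases (SD 0.834) that was -0.138 without mouse 2. With a share of 50% or 80% in place of 65% to end the stretches, settings chosen after seeing the data, the middle difference was -0.333 (exact sign-flip permutation p = 0.75) or -1.03 bases. The J-like stretch was longer by 0.428 bases (SD 0.262). Its full length differs by J segment, with 17 bases for TRBJ1-3 and 12 for TRBJ2-7. The part of J use in the J-like difference was not tested. With the share of 65%, each of these 3 differences had an exact sign-flip permutation p of 0.25, the smallest possible, which for the V-like bases follows from the definition. The V-like difference was the largest of the 3 relative to its SD, with its direction fixed as stated above.

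Middle residues are taken here as those between the first 4 and the last 5 of the CDR3, a window other than the middle bases above. The V-like stretch of TRBV20 ended with residue 4, at 12 bases. Those of other V segments had up to 16 bases and could reach into the window. Among the middle residues, leucine was lower in TRBV20. It made up 4.30%, 2.99% and 2.68% of these residues, weighted by templates, in mice 1, 2 and 3 against 7.63%, 7.07% and 6.50% in the others. The ranges do not overlap, and the means were 3.32% ± 0.860 and 7.06% ± 0.564 (log2 -1.09, SE 0.20, edgeR adjusted p = 0.00377). It was the only residue called of 19 tested (5.26%), while 6 had an unadjusted p under 0.05. Proline stood at 1.14% ± 0.925 and 3.65% ± 0.269 (adjusted p = 0.0538), and glycine, the most common residue, at 30.0% ± 0.624 and 27.0% ± 0.934 (adjusted p = 0.136). When the first 6 residues were left out instead of the first 4, the leucine ratio was -0.85 on the log2 scale and was not called (edgeR adjusted p = 0.413). The part of V-like bases in the leucine difference was not tested beyond that. Leucine was also not called by DESeq2 (adjusted p = 0.0893), which called 0 residues, with 3 at an unadjusted p under 0.05, nor without mouse 3 (adjusted p = 0.267).

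Most TRBV20 rearrangements had 1 template, as did most of the others. Of the 219 listed, 137 had 1 template, 49 had 2, 23 had 3 and 10 had 4 or more. The largest of the 219 had 6 templates in a sample, whereas the largest of the 4190 of the other V segments had 35. These maxima come from sets of unlike size. Pooled over the samples, TRBV20 had 1.59 templates per rearrangement, rank 6 from the highest of the 17 V segments with at least 100 templates. Rearrangements of 5 or more templates in a sample were 3 of 219 TRBV20 rearrangements (1.37%) and 125 of 4190 others (2.98%). Templates per rearrangement stood at 1.56, 1.55 and 1.60 in mice 1, 2 and 3 for TRBV20 and 1.55, 1.62 and 1.58 for the others, a difference of -0.0165 (SD 0.0517, exact sign-flip permutation p = 1). When rows sharing V segment, J segment and CDR3 bases were merged, it was -0.142 (exact sign-flip permutation p = 0.25). Rearrangements with 1 template made up 62.7% ± 3.18 of TRBV20 and 66.2% ± 2.08 of the others, lower in 3 of 3 mice (exact sign-flip permutation p = 0.25). That difference turned from -3.44 to 0.114 percentage points when rows were merged in this way.

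Some TRBV20 rearrangements were found in both samples of a mouse, 3 in each. They were 3 of 69 (4.35%), 3 of 50 (6%) and 3 of 91 (3.30%) TRBV20 rearrangements of mice 1, 2 and 3, against 2.96%, 4.83% and 3.67% of the others (difference 0.728 percentage points, SD 0.963, exact sign-flip permutation p = 0.5). These 9 rearrangements had 2 to 8 templates and used 7 different J segments. None used TRBJ1-3, which was joined in 21 of the 219 listed TRBV20 rearrangements, so 9 are too few to show a lack of it. The CDR3 bases of the 9 are shown because they are the sequences seen in separate libraries. Capitals mark the middle bases, and the cysteine codon opens each.
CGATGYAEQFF, TRBJ2-1, mouse 1: tgtggtgctaCAGGGtatgctgagcagttc
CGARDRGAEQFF, TRBJ2-1, mouse 1: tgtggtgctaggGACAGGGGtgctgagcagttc
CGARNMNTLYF, TRBJ2-4, mouse 1: tgtggtgctaggAACATGaacaccttgtac
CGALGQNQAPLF, TRBJ1-5, mouse 2: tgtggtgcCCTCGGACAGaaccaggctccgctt
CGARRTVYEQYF, TRBJ2-7, mouse 2: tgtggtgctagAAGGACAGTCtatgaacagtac
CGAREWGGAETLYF, TRBJ2-3, mouse 2: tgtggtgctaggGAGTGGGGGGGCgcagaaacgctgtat
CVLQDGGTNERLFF, TRBJ1-4, mouse 3: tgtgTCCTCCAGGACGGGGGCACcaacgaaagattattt
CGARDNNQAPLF, TRBJ1-5, mouse 3: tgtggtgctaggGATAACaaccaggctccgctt
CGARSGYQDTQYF, TRBJ2-5, mouse 3: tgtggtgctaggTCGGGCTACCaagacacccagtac

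The CDR3 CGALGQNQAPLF of mouse 2 was the largest of all TRBV20 rearrangements, with 6 superior and 2 inferior templates. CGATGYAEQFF of mouse 1 had 2 and 4, and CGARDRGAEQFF had 3 and 1. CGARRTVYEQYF of mouse 2 had 2 and 3, and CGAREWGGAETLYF had 1 and 2. In mouse 3, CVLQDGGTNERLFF had 2 and 3, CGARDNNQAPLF had 2 and 2 and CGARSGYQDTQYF had 1 and 2, and in mouse 1 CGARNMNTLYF had 1 in each. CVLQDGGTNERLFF was the one that departed from the CGA start, with V-like bases for little more than the cysteine codon.

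Of the 18 places among the 3 largest TRBV20 rearrangements of each sample, 8 were held by TRBJ1-3 and 6 by TRBJ2-7. These are J segments of high templates per rearrangement, as given above, and ties in size were broken by sequence. The TRBJ1-3 ones were spread over all 3 mice. The 3 longest of them are shown by their bases, with the middle in capitals, beside the 2 largest of the inferior sample of mouse 3, which had 5 templates each in that sample and 0 in the superior one.
TRBJ1-3, mouse 1, inferior, 3 templates: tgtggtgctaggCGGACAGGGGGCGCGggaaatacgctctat
TRBJ1-3, mouse 1, inferior, 3 templates: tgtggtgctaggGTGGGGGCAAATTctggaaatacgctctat
TRBJ1-3, mouse 2, inferior, 2 templates: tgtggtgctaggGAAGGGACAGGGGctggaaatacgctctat
TRBJ1-3, mouse 3, inferior, 5 templates: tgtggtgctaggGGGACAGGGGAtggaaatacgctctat
TRBJ2-7, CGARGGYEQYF, mouse 3, inferior, 5 templates: tgtggtgctaggGGAGGGtatgaacagtac

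No TRBV20 rearrangement passed a test of its difference between the samples of its mouse. With at least 5 templates in the mouse, 6 entered Fisher's exact test (two-sided), and 0 passed after Benjamini-Hochberg adjustment, with 0 at an unadjusted p under 0.05. The test compares libraries and covers counting error only. Over all V segments its calls were 7 of 43 rearrangements for mouse 1 (16.3%), 9 of 43 for mouse 2 (20.9%) and, for mouse 3, 15 of 57 (26.3%). The lowest adjusted p among the TRBV20 ones was 0.203, for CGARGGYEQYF and the TRBJ1-3 rearrangement of mouse 3 shown above, whose 5 templates each made up 0.270% of the inferior sample. Their count of 0 in the superior sample allows a share of up to 0.264%, close to the inferior share. With 5 templates, all of them in the inferior sample is the most uneven split in that direction. It gave an unadjusted p of 0.164 (Fisher's exact test), so a rearrangement of 5 templates in mouse 3 could not pass in that direction. For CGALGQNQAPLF of mouse 2 the shares were 0.548% and 0.217% (Fisher's exact test, adjusted p = 0.383). This was the largest TRBV20 rearrangement, with 8 templates in its mouse, and whether greater depth would bring a call was not tested.

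Few TRBV20 rearrangements recurred between mice. At the level of bases, 1 of 209 was found in 2 mice, against 8 of 4029 in the other V segments. By CDR3 residues and J segment, 2 of 197 TRBV20 clonotypes (1.02%) and 28 of 3554 others (0.788%) were found in at least 2 mice. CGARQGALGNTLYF with TRBJ1-3 had 2 templates in mouse 1 (inferior) and 3 in mouse 3 (superior), with the same bases in both. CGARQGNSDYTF with TRBJ1-2 had 1 template in mouse 1 (inferior) and 2 in mouse 3 (superior), where it was encoded by other bases. Both are shown with the middle in capitals.
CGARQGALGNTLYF, mice 1 and 3: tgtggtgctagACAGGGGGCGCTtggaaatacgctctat
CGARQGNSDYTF, mouse 1: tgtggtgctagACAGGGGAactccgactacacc
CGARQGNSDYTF, mouse 3: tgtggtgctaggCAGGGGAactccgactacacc

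Within a mouse, 10 of 199 combinations of TRBV20 CDR3 residues and J segment were encoded by more than 1 nucleotide rearrangement. Neither shared clonotype was found in both samples of a mouse.

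The remaining features of TRBV20 were set against the sample titles. The exact permutation tests here did not pair the samples by mouse. CDR3s averaged 12.8 ± 0.291 residues in the superior and 13.1 ± 0.237 in the inferior samples, with 3 per group (exact permutation p = 0.2, adjusted p = 0.4). They were shorter in the superior sample of 3 of 3 mice. Paired by mouse, the exact sign-flip permutation p for CDR3 length was 0.25, the smallest for 3 mice. Templates per rearrangement were 1.53 ± 0.0716 and 1.61 ± 0.130 (exact permutation p = 0.6, adjusted p = 0.6). Rearrangements of 1 template made up 65.4% ± 1.20 and 60.1% ± 6.31 (exact permutation p = 0.4, adjusted p = 0.533). None of the 4 features tested passed, and 3 against 3 samples cannot go below 0.1.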

How the data were processed

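TCRB rearrangements of splenic Tfr cells were amplified from genomic DNA with the immunoSEQ mouse kit, per the labels' protocols. The submitters' processing notes name the build mm10, and the aligner and the caller of rearrangements are not stated in them or in the tables. The authors deposited, for each rearrangement of 87 bases, a whole-number count and a productive fraction, and the count was used. Total counts were 667 to 1855 per sample. The samples all carry 1 run label, per the deposited tables.

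Members were the rows named TRBV20. The members, lists and tests were chosen with earlier results of these data known. Rows whose CDR3 lacks a first cysteine (41, of them 1 TRBV20) were left out of CDR3 features, and 7 templates without a resolved J segment, 2 of them TRBV20, out of J use. Counts were summed per V segment and sample, or per J segment, CDR3 length or residue in TRBV20 and all other V segments of each mouse. They were fitted with edgeR 4.0.16 (R 4.3.3, quasi-likelihood, common dispersion, totals as library size, at least 10 templates, Benjamini-Hochberg at 0.05), with the mouse as a term where TRBV20 was set against the rest. The fit was also run on simulated counts drawn without differences between mice, which does not test how it handles such differences. Single values were tested with two-sided exact sign-flip tests over 3 mice or exact permutation of 3 against 3 samples. Alternatives included DESeq2 1.42.0, TMM, no filter, counting rearrangements once, merging repeats and leaving out each mouse. Other steps used Python 3.11.15 and scipy 1.17.1.

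Both samples of a mouse number come from 1 animal, so the numbers pair the samples. After subtracting each group's mean share per V segment, the samples of mice 1, 2 and 3 correlated at 0.0691, 0.677 and -0.350. Named clonotypes were the 3 largest TRBV20 ones of each sample, those found in both samples of a mouse with at least 3 templates, and those found in several mice. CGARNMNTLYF, TRBV29 and the proline and glycine values were added after their values were seen.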

Additional observations from a re-analysis of the deposited data

Results flagged for a closer look

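The TRBJ2-5 share of TRBV20 minus that of all other V segments was negative in all 3 superior samples, with a mean of -4.18 percentage points, and positive in all 3 inferior samples. The superior samples of mice 1, 2 and 3 stood at 8.33%, 2.27% and 5.77% against 9.67%, 9.44% and 9.80%, and the inferior samples at 11.8%, 10.5% and 9% against 9.05%, 8.16% and 8.90%. The TRBV20 values rest on 1 to 9 templates per sample, and this difference between superior and inferior samples was not tested. It was noticed among the 14 J segments examined, of which TRBJ1-7 and TRBJ2-6 had no TRBV20 templates.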

How the results depend on the processing

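The low number of TRBV20 templates, 36 to 102 per sample, limits all comparisons, and the cause of each change below was not tested. With the mouse as replicate block, the log2 ratio of the TRBV20 share between superior and inferior samples was -0.13, and no call changed. J segments called fell from 1 to 0 with TMM, DESeq2, no filter, each rearrangement counted once, merged and counted once, or superior samples only, and to 0 without each mouse in turn. CDR3 lengths called fell from 3 to 0 with DESeq2, superior samples only or inferior samples only, to 1 when merged and counted once, and were 0 to 2 with a mouse left out. Middle residues called moved from 1 to 3 without the replicate block, to 2 when merged and counted once or in inferior samples only, to 0 with DESeq2, in superior samples only or with the first 6 residues left out, and were 0 to 3 with a mouse left out. The difference in mean CDR3 length was -0.796 with 6 samples as units, where it passed the threshold. Signs turned for the unresolved D share (-4.91 to 0.789 with a mouse left out), templates per rearrangement (-0.0354 to 0.0130), the same between superior and inferior samples of TRBV20 (-0.150 to 0.0328) and the share of single templates (0.114 when merged). Log2 ratios of J segments turned for TRBJ1-4 (-0.020 with TMM, -0.091 with DESeq2, -0.011 in inferior samples, -0.74 to 0.46 with a mouse left out), TRBJ1-2 (0.085 when merged and counted once), TRBJ1-1 (-0.018 in inferior samples, -0.055 to 0.44), TRBJ1-6 (-0.14 in inferior samples, -0.15 to 0.47), TRBJ2-4 (-0.072 in inferior samples, -0.11 to 0.26), TRBJ2-1 (-0.12 in superior samples, -0.14 to 0.66), TRBJ2-3 (0.25 in superior samples) and TRBJ2-5 (0.24 in inferior samples). With a minimum of 3 templates, 36 TRBV20 rearrangements entered Fisher's exact test, of which 0 were called and 4 had an unadjusted p under 0.05. Over all V segments, only 3 of 573 were called at that minimum, so 0 of 36 does not set TRBV20 apart. With a minimum of 10, no TRBV20 rearrangement could be tested.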
